A study of Mus musculus with 7 samples.

Results

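The 10 genes described here encode the building blocks of microtubules and proteins that act on them: Stmn1 (stathmin), the alpha-tubulins Tuba1a, Tuba1b and Tuba1c, the beta-tubulins Tubb5, Tubb4b, Tubb2a and Tubb6, the plus-end tracking protein Mapre1 and the lattice-binding protein Map4. They were taken by symbol from a table of 23420 genes, and all 10 were found and had enough counts to be among the 11991 genes tested. The libraries are poly(A) RNA of microglia, the brain's resident macrophages, sorted as CD11b+, CD45low and CX3CR1+ cells from mouse cortex on postnatal day 30. The cKO group (n = 4) was Tmem119creErt2+ Srgap2f/f, which means that a tamoxifen-inducible Cre recombinase driven by the microglial gene Tmem119 deletes Srgap2, and the WT group (n = 3) was Srgap2f/f without the recombinase. Tamoxifen went to the mice of both genotypes by gavage, first on day 8 and again on day 10 after birth, with 75 ug per g body weight each time. The recombinase was carried by cKO mice only, so its effect and that of the loss of Srgap2 cannot be told apart. One mouse gave 1 library, and sex, litter and sorting day are not in the labels, so p-values measure the spread between these mice. Because these are bulk samples, fewer cells of a type and less RNA per cell cannot be told apart.

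Microtubules are hollow polymers of alpha- and beta-tubulin dimers that grow and shrink at their plus ends. Stathmin binds free dimers and promotes shrinkage, the end-binding protein EB1 (Mapre1) rides on growing plus ends and recruits other proteins there, and MAP4 binds along the lattice and stabilises it. In microglia the microtubule array supports the branched shape of the cells and carries lysosomes and endosomes. Cells also adjust tubulin mRNA to the pool of free dimers: a factor encoded by Ttc5 recognises the first residues of nascent alpha- and beta-tubulin and directs decay of the mRNA being translated.

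The coding starts of the tubulin genes are shown because this recognised stretch lies there and because they show how alike the alpha-tubulin mRNAs are. Each line holds the first 30 coding bases, 5′ to 3′, on the coding strand of the longest protein-coding transcript in GENCODE M21 (build GRCm38, whereas the counts were made on GRCm39), and the capitals mark the first 12 bases.
Tuba1a: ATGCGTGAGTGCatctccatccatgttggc
Tuba1b: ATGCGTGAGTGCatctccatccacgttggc
Tuba1c: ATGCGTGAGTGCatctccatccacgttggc
Tubb5: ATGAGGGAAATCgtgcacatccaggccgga
Tubb4b: ATGAGGGAGATCgtgcacctgcaggctggg
Tubb2a: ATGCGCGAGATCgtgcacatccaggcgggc

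The first 12 bases were identical in the 3 alpha-tubulin genes, and over 30 bases Tuba1b and Tuba1c differed at 0 positions and Tuba1a differed from each of them at 1. These genes are neighbours on chromosome 15: the transcripts of Tuba1b and Tuba1a span chr15:98931425-98934565 and chr15:98949837-98953703 on the minus strand, and that of Tuba1c spans chr15:99029891-99038110 on the plus strand (GRCm38). Their coding sequences were 97.1% to 98.3% identical, against 80.2% to 84.6% among the 4 beta-tubulin members. Of the stretches of 100 bases in each transcript, 65.8% in Tuba1a, 73.0% in Tuba1b and 53.4% in Tuba1c also occurred in a transcript of another gene. The share was 36.9% for Tubb2a, nearly all of it with Tubb2b, 30.6% for Tubb4b and 26.1% for Stmn1, each mostly with a processed or predicted copy, and 0% for Tubb5, Tubb6, Mapre1 and Map4. The rule by which the authors counted shared reads is not given in the sources used here, so the share of counts lost to such copies, the split of counts among Tuba1a, Tuba1b and Tuba1c, and that between Tubb2a and Tubb2b are uncertain. The transcripts of the other members printed or compared here span chr4:134468320-134473843 (Stmn1, plus strand), chr17:35833921-35838306 (Tubb5, minus), chr2:25222160-25224702 (Tubb4b, minus), chr13:34074274-34078007 (Tubb2a, minus), chr2:153741274-153773310 (Mapre1, plus) and chr9:109931460-110083955 (Map4, plus).

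Total counts ranged from 27016173 to 35707304 per library. The deleted gene was lower in each cKO library: Srgap2 was at 212 to 344 CPM (counts scaled to a common library total with TMM factors) in cKO and 691 to 979 CPM in WT, a log2 fold change of −1.53 (SE 0.17, adjusted p = 0.0053). Of the microglial markers, P2ry12 was at 2228 to 3235 CPM in cKO against 2231 to 3332 in WT, Cx3cr1 at 6069 to 6846 against 6975 to 7981, and Csf1r at 16290 to 19080 against 17210 to 18670. Tmem119, the gene whose regulation drives the recombinase, passed the threshold and was lower, with 3005 to 4664 CPM in cKO against 6168 to 7212 in WT. Neuronal markers, among them the neuronal tubulin Tubb3 and the neuronal stathmin Stmn2, summed to 1.89 to 4.20 CPM in cKO against 2.06 to 2.54 in WT, and no library had more than 0.778 CPM of Tubb3. The summed level was 65.8 to 110.0 CPM in cKO against 65.3 to 83.0 in WT for the oligodendrocyte lineage, 81.5 to 136 and 130 to 134 CPM for astrocytes, 57.4 to 76.5 and 72.8 to 80.5 CPM for endothelial and mural cells, and 55.4 to 109.8 and 60.0 to 91.8 CPM for border-associated macrophages. It was 8.16 to 10.1 and 5.88 to 10.5 CPM for monocytes and neutrophils and 1.42 to 20.6 and 0.475 to 6.56 CPM for erythroid cells. The oligodendrocyte, astrocyte and endothelial sums each rested mostly on 1 gene. Mbp was at 61.7 to 103 CPM in cKO against 61.0 to 77.8 in WT. Slc1a3 was at 74.8 to 130 against 122 to 127 CPM, and Pecam1 at 51.8 to 68.5 against 65.5 to 73.7 CPM. All other markers of these lists were at or below 6.025 CPM in every library. Cldn5, Rgs5, Hba-a1 and Hba-a2 had 0 counts in all libraries. Other markers of the same lists were detected. The endothelial Cdh5 was at 4.06 to 6.03 CPM in cKO against 4.64 to 5.23 in WT. The globin Hbb-bs, listed as Beta-s, was at 1.24 to 17.7 CPM against 0.402 to 5.75. The 0 counts therefore do not show that these cells were absent, and their reason was not tested.

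Of the 10 members, 1 rose in cKO and 0 fell at an adjusted p under 0.05. That gene was Stmn1, and 9 did not pass the threshold. Among all genes tested, 0.317% passed on the higher side and 0.0417% on the lower side. The log2 fold change was above 0 for 9 of the 10, Map4 being the exception, against 48.1% of all genes tested. The median was 0.39 over the members and −0.01 over all genes tested. The groups did not overlap for Stmn1, Tubb5 and Mapre1, which were higher in each cKO library, and for Map4, which was lower in each. Of all genes tested, 8.86% had no overlap on the higher side and 7.2% on the lower side. The members were chosen with earlier results of these data known. Their comparisons with all genes tested are therefore descriptions and not support for a shift of the group.

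**Figure D1:**
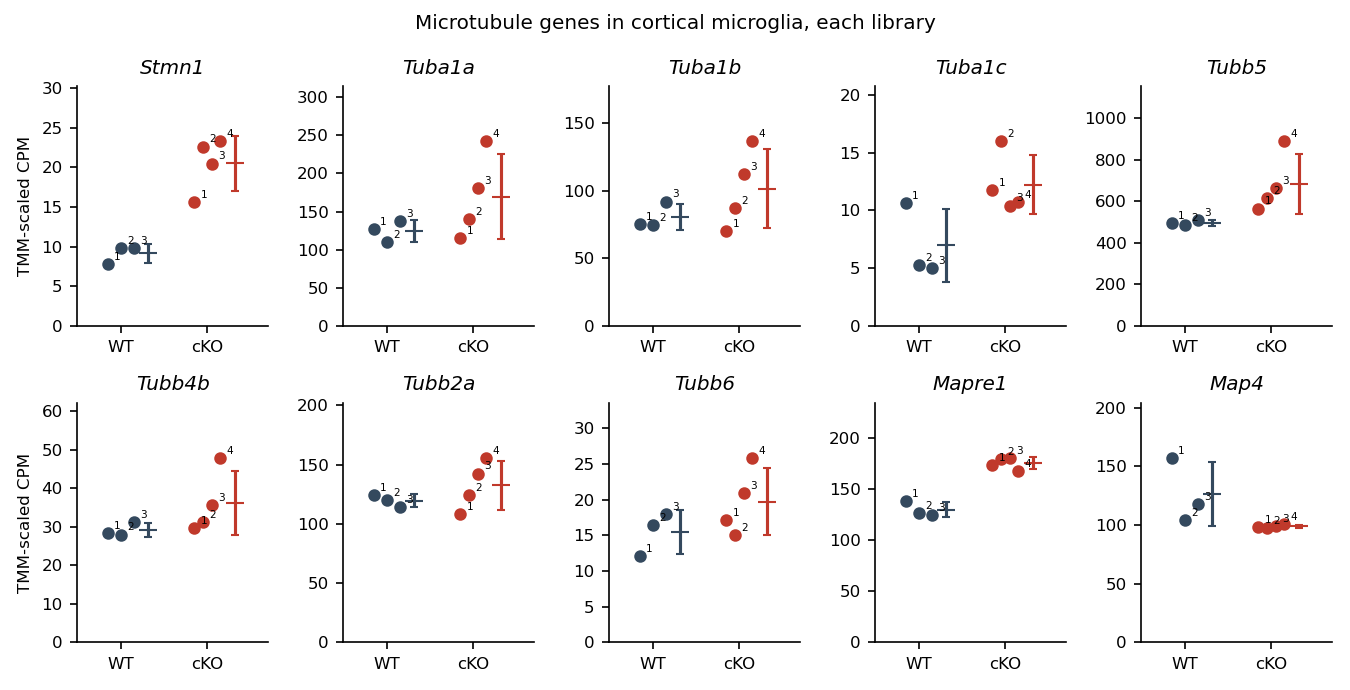
Level of each of the 10 genes in TMM-scaled CPM (vertical axis, from 0) in the 3 WT and 4 cKO libraries, with the replicate number beside each point and the mean ± SD to the right. Stmn1 sits between 15.6 and 23.3 CPM in cKO and at or below 9.84 CPM in WT, while the tubulins other than Tubb5 overlap between the groups.

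The mean level of Stmn1 rose 2.24-fold in cKO. It was at 15.6, 22.6, 20.5 and 23.3 CPM in cKO replicates 1 to 4 and at 7.82, 9.84 and 9.82 CPM in WT replicates 1 to 3, which rests on 450 to 760 counts per cKO library and 214 to 352 per WT library. The lowest cKO library thus lay above the highest WT library. Group means were 20.5 ± 3.49 CPM (SD, n = 4) for cKO and 9.16 ± 1.16 CPM (SD, n = 3) for WT, a log2 fold change of 1.16 (SE 0.17, edgeR adjusted p = 0.025), and it ranked 9 by p among the 11991 genes. An exact two-sided permutation test gave p = 0.0286, which is the lowest value possible with the 35 divisions of 7 libraries. With groups that do not overlap, this p adds little to the ranges above and is not a second line of support. A lack of overlap on the higher side was seen in 8.86% of all genes tested.

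The size of the Stmn1 difference varied little between subsets of the mice, but its call did vary. Without any 1 library the log2 fold change stayed between 1.06 and 1.26. The adjusted p was 0.0051 without cKO replicate 1 and 0.042 without cKO replicate 4, and the call was lost without cKO replicate 2 (adjusted p = 0.097), cKO replicate 3 (0.099), WT replicate 1 (0.065), WT replicate 2 (0.21) or WT replicate 3 (0.096). Within the mice numbered 1058 to 1062 the difference in mean log2 CPM was 1.26, and within those numbered 1101 to 1109 it was 1.15. Libraries with and without Xist RNA gave 1.22 and 1.19. The Y-linked Ddx3y was at 27.2 to 30.4 CPM in the libraries without Xist RNA, which were cKO replicates 1 and 3 and WT replicate 1. In the libraries with Xist RNA it was at 0 to 0.184 CPM. By these RNAs the split is one of sex, in which the groups were not balanced. WT replicate 1 is the single WT library both among mice 1058 to 1062 and among libraries without Xist RNA. These splits are therefore not independent checks.

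**Figure D2:**
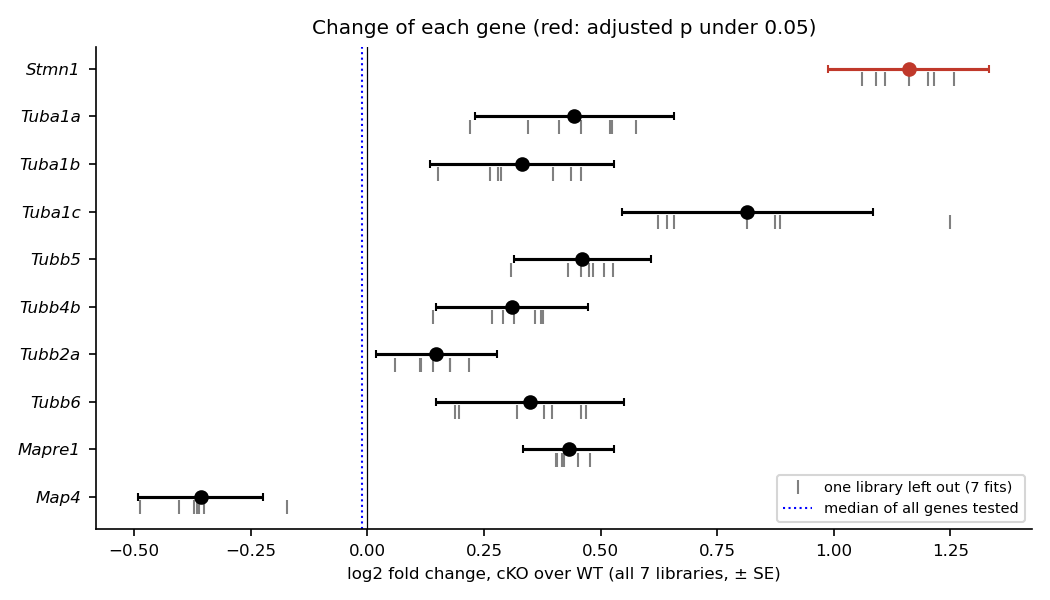
Log2 fold change of cKO over WT for each gene (points, with SE as bars; red where the adjusted p was under 0.05) and the value with each library left out in turn (grey ticks). Stmn1 is the only red point, at 1.16, and the ticks of every gene stay on the side of 0 of their point.

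Genes of proliferation, in which stathmin and tubulins are known to be abundant, were followed beside Stmn1. Their list summed to 344 to 404 CPM in cKO against 281 to 299 in WT. The test passed 1 of its 24 tested genes on the higher side and 0 on the lower, against 0.317% and 0.0417% of all genes tested. The one that rose was Rrm2, a subunit of ribonucleotide reductase, at 0.623, 0.508, 0.837 and 1.01 CPM in cKO against 0.146, 0.0952 and 0.0837 in WT (log2 fold change of 2.77 with SE 0.49, adjusted p = 0.045), and its call was lost when any library other than cKO replicate 1 was left out. Top2a, the DNA topoisomerase of dividing cells, was at 1.20 to 2.42 CPM in cKO against 0.222 to 0.548 in WT (log2 fold change 1.94, adjusted p = 0.083). The division marker Mki67 was at 0.846 to 1.35 and 0.0952 to 0.402 CPM (adjusted p = 0.11). Before adjustment, 9 of the 24 genes had a p under 0.05, all 9 on the higher side (against 9.65% of all genes tested). Of the 24 genes, 19 had a log2 fold change above 0, against 48.1% of all genes tested. Those below 0 were Cenpf (−0.59), Mcm7 (−0.15), Aurka (−0.14), Cdc20 (−0.13) and Plk1 (−0.055). The highest levels in the list were those of Mcm3 (81.1 to 113 CPM in cKO, 72.9 to 93.2 in WT) and Pcna (67.8 to 92.3 and 48.6 to 65.4). The sum of the list did not overlap between the groups, and its part in the Stmn1 difference was not tested.

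The other stathmins were near the floor. Stmn2 was at 0.0613 to 0.416 CPM in cKO against 0.222 to 0.365 in WT (log2 fold change of −0.26 with SE 0.61, adjusted p = 0.87), Stmn3 had from 4 to 26 counts per library, and Stmn4 had at most 12 and was not tested. Stmn1 thus held most of the stathmin counts in each library.

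The genes whose profile over the 7 libraries was closest to that of Stmn1 were Cfl1, 2210013O21Rik, Atox1, Txn1 and Gltp, out of 8575 genes whose mean log2 CPM was 3 or more. Closeness is the root-mean-square distance between log2 CPM profiles, each centred on its own mean. It was 0.157 for Cfl1, which encodes the actin-severing cofilin, from 0.215 to 0.238 for the other 4, and 0.623 at the median of all candidates. Cfl1 was at 1054 to 1457 CPM in cKO against 671 to 720 in WT. Atox1 encodes a copper chaperone, Txn1 encodes thioredoxin and Gltp encodes a glycolipid transfer protein. No member of the tubulin families came among these genes, Tubb5 being the nearest other member, at a distance of 0.391.

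The alpha-tubulins were higher in mean in cKO and overlapped between the groups. Tuba1a was at 115, 140.5, 181 and 242 CPM in cKO replicates 1 to 4 and at 127, 110, 138 CPM in WT replicates 1 to 3 (log2 fold change of 0.44 with SE 0.21, adjusted p = 0.32). Tuba1b was at 69.9, 87.1, 112 and 136.5 CPM in cKO against 75.4, 74.5 and 92.0 in WT (0.33 with SE 0.20, adjusted p = 0.44). In both genes cKO replicate 4 was the highest library; cKO replicate 1 lay within the WT range for Tuba1a and below all WT libraries for Tuba1b.

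Tuba1c, the least abundant of the 3, had another order of libraries. It was at 11.8, 16.0, 10.4 and 10.7 CPM in cKO against 10.6, 5.27 and 5.02 in WT (log2 fold change of 0.81 with SE 0.27, adjusted p = 0.17). WT replicate 1 lay within the cKO range, and without it the log2 fold change was 1.25 (adjusted p = 0.065). Among libraries with Xist RNA the difference in mean log2 CPM was 1.34, and among those without it, where WT replicate 1 is the single WT library, it was 0.06. Summed over Tuba1a, Tuba1b and Tuba1c, which does not depend on how reads were split among these 3 genes, the level was 283 ± 83.2 CPM (SD, n = 4) for cKO and 212 ± 22.7 CPM (SD, n = 3) for WT. The sums were 197, 244, 304 and 389 CPM in cKO against 213, 189 and 235 in WT, so the groups overlapped.

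Tubb5 was the most abundant of the 10 genes and was higher in each cKO library than in each WT library. It was at 565, 616, 662 and 888 CPM in cKO against 494, 484 and 511 in WT. Group means were 683 ± 143 CPM (SD, n = 4) for cKO and 496 ± 13.8 CPM (SD, n = 3) for WT (1.38-fold; log2 fold change of 0.46 with SE 0.15), and the adjusted p of 0.16 missed the threshold. The spread in cKO was large mainly through replicate 4, without which the log2 fold change was 0.31 (adjusted p = 0.15).

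The other beta-tubulin members differed less. Tubb4b was at 29.7, 31.2, 35.8 and 47.9 CPM in cKO against 28.4, 28.0 and 31.2 in WT (log2 fold change of 0.31 with SE 0.16, adjusted p = 0.37). Tubb6 was at 17.1, 15.1, 20.9 and 25.9 CPM in cKO against 12.1, 16.5 and 18.0 in WT (0.35 with SE 0.20, adjusted p = 0.42). Tubb2a was at 108, 124, 142 and 156 CPM in cKO against 124, 120 and 114 in WT (0.15 with SE 0.13, adjusted p = 0.62). In all 3 genes the groups overlapped, with cKO replicate 4 the highest library.

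Among the 7 tubulin members, cKO replicate 4 was the highest of all libraries for 6 and cKO replicate 1 was the lowest cKO library for 5. The libraries also differed in base composition. Taken over 11907 genes (a description, since genes are not replicates), the rank correlation between a gene's deviation from its mean level and its GC content was −0.52 in cKO replicate 1, 0.17 in replicate 2, −0.42 in replicate 3 and 0.44 in replicate 4, and from −0.02 to 0.24 in WT. The tubulin transcripts had a GC content from 52.0% to 56.6%, above the median of 50.2%. Corrected by offsets for GC content and length, the log2 fold change was 0.44 for Tuba1a, 0.35 for Tuba1b, 0.86 for Tuba1c, 0.31 for Tubb4b, 0.16 for Tubb2a and 0.39 for Tubb6, and none of these 6 passed. Tubb5 was at 0.49 and passed (adjusted p = 0.040), in a fit that called 649 genes in all. Of 19 alternative fits, Tubb5 passed in 3. The erythroid marker sum was also highest in cKO replicate 4, at 20.6 CPM. Neither its part nor that of base composition in the order of the libraries was tested. Without cKO replicate 4 the values were 0.22 for Tuba1a, 0.15 for Tuba1b, 0.14 for Tubb4b, 0.06 for Tubb2a and 0.19 for Tubb6. Within the mice numbered 1058 to 1062 the difference in mean log2 CPM was −0.0014 for Tuba1a, 0.05 for Tuba1b, 0.26 for Tubb5 and 0.10 for Tubb4b, and within those numbered 1101 to 1109 it was 0.77, 0.58, 0.63 and 0.49 in the same order, so these 4 values were larger in the second run. Tuba1c gave 0.37 and 1.03 and Tubb2a −0.10 and 0.34, while Tubb6 was nearly equal in the runs, at 0.41 and 0.43. The first run holds a single WT library, and the second includes cKO replicate 4. The difference between the runs was not tested.

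Levels of different genes were compared as CPM per kb of the longest protein-coding transcript. In WT the order was Tubb5 (187 ± 5.21 CPM per kb, SD, n = 3), Tubb2a (74.3 ± 3.18), Tuba1a (69.2 ± 7.90), Tuba1b (46.3 ± 5.65), Map4 (20.8 ± 4.50), Tubb4b (18.3 ± 1.08), Mapre1 (17.7 ± 0.99), Tubb6 (8.82 ± 1.75), Stmn1 (8.64 ± 1.10) and Tuba1c (3.52 ± 1.60). The ranges of neighbours overlapped for Tubb2a and Tuba1a, for Map4 and Tubb4b, for Tubb4b and Mapre1, and for Tubb6 and Stmn1, so these pairs are not ordered beyond their spread. In cKO, Stmn1 was at 19.3 ± 3.29 CPM per kb (SD, n = 4), and its range overlapped those of its neighbours in the order, Tubb4b and Map4. The order rests on the transcript taken for each gene. The longest and the median protein-coding transcript have 6091 and 3320 bases for Map4, 2649 and 1705.5 for Tubb5, and 1060 and 884.5 for Stmn1. The place of Map4 and its overlaps with Tubb4b and Stmn1 may therefore not hold with median lengths. Levels also depend on how shared reads were counted.

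The summed alpha-tubulin and beta-tubulin levels had higher means in cKO. The alpha family summed to 111, 137, 172 and 220 CPM per kb in cKO and 121, 107 and 133 in WT, a ratio of means of 1.33. The beta family summed to 339, 374, 410 and 521.5 CPM per kb in cKO and 313, 305 and 315 in WT, a ratio of 1.32, and here each cKO library lay above each WT library. Beta over alpha was 2.63 ± 0.32 (SD, n = 4) in cKO and 2.60 ± 0.24 (SD, n = 3) in WT. Stmn1 amounted to 13.2%, 15.6%, 11.2% and 9.99% of the alpha-tubulin level per kb in cKO and to 6.12%, 8.65% and 6.97% in WT, so this ratio did not overlap between the groups either. These sums and ratios are descriptions and were not tested. They depend on the transcript lengths taken and on how reads shared with other genes were counted, which is not known. Shared stretches of 100 bases made up 53.4% to 73.0% of the alpha-tubulin members and 0% of Tubb5. The ratios of beta to alpha and of Stmn1 to alpha are therefore uncertain in size.

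Within each family the order of the main isotypes was the same in the 7 libraries. Tuba1a held 58.4% ± 1.89 (SD, n = 4) of the alpha-tubulin level in cKO and 57.5% ± 0.96 (SD, n = 3) in WT, Tuba1b 36.4% ± 0.78 and 38.5% ± 2.25, Tuba1c 4.18% ± 1.68 and 2.95% ± 1.33, and Tuba4a 0.99% ± 0.08 and 1.04% ± 0.13. Tubb5 held 62.6% ± 1.42 of the beta-tubulin level in cKO and 60.2% ± 0.86 in WT, Tubb4b 5.48% ± 0.22 and 5.87% ± 0.28, and Tubb6 2.72% ± 0.29 and 2.84% ± 0.56. The Tubb2 pair stood apart: the share of Tubb2a was 18.5% to 21.6% in cKO and 22.5% to 24.7% in WT, while that of Tubb2b was 8.44% to 9.42% in cKO and 6.63% to 7.59% in WT, with no overlap in either. Tubb2b itself was at 64.2, 76.9, 80.2 and 96.1 CPM in cKO against 51.8, 44.1 and 45.6 in WT (log2 fold change of 0.75 with SE 0.14, adjusted p = 0.052). Because these transcripts share sequence, their sum is also given: it was 172, 201, 222.5 and 252 CPM in cKO against 176, 164 and 160 in WT, so cKO replicate 1 fell within the WT range.

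**Figure D3:**
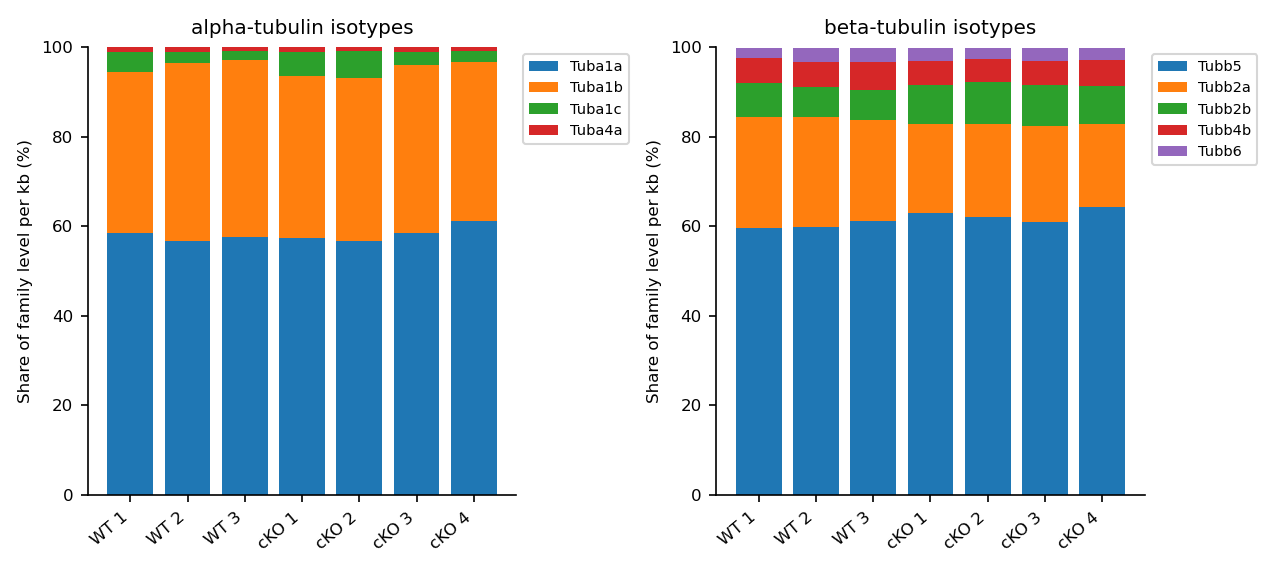
Share of each isotype in the summed alpha-tubulin (left) or beta-tubulin (right) level per kb, in percent, for each library; isotypes at or below 0.148% on average in cKO and WT are not drawn. Tuba1a and Tuba1b make up most of the alpha bars and Tubb5 most of the beta bars in all 7 libraries, and the Tubb2b segment runs from 6.63% to 7.59% in WT and from 8.44% to 9.42% in cKO.

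Mapre1, which encodes EB1, was the member with the next smallest p after Stmn1. It was at 174, 180, 181 and 168 CPM in cKO against 138, 127 and 125 in WT. Group means were 175 ± 6.06 CPM (SD, n = 4) for cKO and 130 ± 7.29 CPM (SD, n = 3) for WT, a 1.35-fold difference (log2 fold change of 0.43 with SE 0.10) whose adjusted p of 0.092 missed the threshold. Of 19 alternative fits it passed in 4, with adjusted p from 0.0026 to 0.376 over the 19. The lowest was that of DESeq2, which called 499 genes in all, against 43 in the main fit. For Mapre1, cKO replicate 4, the highest library for most tubulins, was the lowest cKO library. The Mapre1 transcript has a GC content of 43.1%. With the offsets for GC content and length the log2 fold change was 0.44 (adjusted p = 0.057). The part of base composition in the order of the libraries was not tested. The difference in mean log2 CPM was 0.35 within the mice numbered 1058 to 1062 and 0.47 within those numbered 1101 to 1109.

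Map4 was the one member with a lower mean in cKO. It was at 98.0, 97.1, 99.4 and 101 CPM in cKO against 157, 104 and 118 in WT. The cKO libraries lay within a narrow range, below all WT libraries, while the WT libraries were spread. The log2 fold change came to −0.36 (SE 0.13, adjusted p = 0.21), and without WT replicate 1 it was −0.17 (adjusted p = 0.48). In WT replicate 1 the rank correlation across genes of deviation with transcript length was 0.41. It was 0.34 in cKO replicate 1, where Map4 was at 98.0 CPM. The longest Map4 transcript has 6091 bases and the median one 3320. The part of transcript length in the Map4 levels was not tested. With the offsets for GC content and length the log2 fold change was −0.29. With the level of Xist as a covariate Map4 passed on the lower side (−0.40, adjusted p = 0.040), in a fit that called 1056 genes in all. Of 19 alternative fits, Map4 passed in this 1 only. The difference in mean log2 CPM was −0.69 within the mice numbered 1058 to 1062, where WT replicate 1 is the single WT library, and −0.15 within those numbered 1101 to 1109.

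The members' profiles over the libraries fell closest together for Tubb5 and Tubb4b, with a root-mean-square distance of 0.0854 on the log2 scale, and for Tuba1a and Tuba1b, with 0.0874. Tubb5 shared no stretch of 100 bases with another gene. Tuba1c lay 0.585 from Tuba1a and 0.618 from Tuba1b. Stmn1 and Map4 were the farthest apart, at 0.797.

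Beyond the members, 12 lists of genes for tubulins, their folding, nucleation, modification, binding, severing and transport held 214 genes, of which 182 were tested. Of the 172 that are not members, 1 rose, 0 fell, and the median log2 fold change was 0.08. Before adjustment, 30 of the 172 had a p under 0.05 on the higher side and 5 on the lower side. Of all genes tested, 9.65% had such a p on the higher side and 6.87% on the lower side. The lists were also chosen with earlier results known, so this comparison is a description too. The gene that rose was Sirt2, which encodes a deacetylase of alpha-tubulin and other proteins. It was at 157, 190, 165 and 198 CPM in cKO against 115, 107 and 122 in WT (log2 fold change of 0.63 with SE 0.12, adjusted p = 0.049). Its call was lost when any library other than cKO replicate 1 was left out (adjusted p from 0.058 to 0.285) and without the robust option (0.053).

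Genes that prepare tubulin dimers were mostly above 0. In the list of tubulin cofactors, prefoldin and the CCT chaperonin, which folds newly made tubulin and actin, 0 of 25 members passed, 19 had a log2 fold change above 0 and 12 had an unadjusted p under 0.05, all 12 on the higher side (against 9.65% of all genes tested), with a median of 0.26. Tbca, the cofactor that holds beta-tubulin, was at 30.9, 38.8, 43.1 and 45.5 CPM in cKO against 21.9, 26.6 and 28.0 in WT (log2 fold change of 0.63 with SE 0.15, adjusted p = 0.10). Cct2, a chaperonin subunit, was at 165 to 179 CPM in cKO against 131 to 138 in WT (0.35 with SE 0.09, adjusted p = 0.13). In these genes the groups did not overlap. Ttc5, named above for its role in tubulin mRNA decay, was at 56.2 to 65.6 CPM in cKO against 57.5 to 64.7 in WT (−0.07, adjusted p = 0.80).

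Genes that nucleate, cut or modify microtubules lay nearer to 0. In the gamma-tubulin and nucleation list 0 of 14 passed, 0 had an unadjusted p under 0.05 and the median was 0.03; Tubgcp4 (0.28) and Mzt1 (0.24), parts of the gamma-tubulin ring complex, had the smallest p. The minus-end and severing list had 0 of 9 past the threshold and a median of −0.02, with Katnal1, a katanin-like protein, at 0.29 and Fignl2 at −0.33. In the modification list, 1 of 16 rose, which was Sirt2, and the median was −0.01. Vash1, which removes the last tyrosine of alpha-tubulin, was at 88.3 ± 10.6 CPM in cKO against 106 ± 16.0 in WT (−0.27, adjusted p = 0.34).

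The lists to which Mapre1 and Map4 belong had medians near 0. Plus-end tracking genes had 0 of 24 past the threshold, 13 above 0 and a median of 0.03. Dst, a large linker of microtubules and other filaments, was at 93.5 to 165 CPM in cKO against 129 to 262 in WT (−0.61 with SE 0.23, adjusted p = 0.21). The lattice-binding list had 0 of 16 past the threshold and a median of 0.06, and Hn1 was at 94.8 to 141 CPM in cKO against 91.3 to 96.7 in WT (0.33 with SE 0.13, adjusted p = 0.24).

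Among the motors, 0 of 29 kinesin genes and 0 of 24 dynein and dynactin genes passed. Kinesins had a median of 0.06, with Kif9 at 4.63 ± 0.44 CPM in cKO against 3.08 ± 0.48 in WT (0.59, adjusted p = 0.17) and Kif21b at 399 ± 45.0 and 509 ± 41.2 CPM (−0.35, adjusted p = 0.17). Dynein and dynactin genes had a median of 0.11, and 8 had an unadjusted p under 0.05, all 8 on the higher side (against 9.65% of all genes tested). The dynein light chain Dynlt3 was at 29.5 to 46.6 CPM in cKO against 20.3 to 25.0 in WT (0.73 with SE 0.16, adjusted p = 0.092), and the intermediate chain Dync1i2 was at 137 to 178 and 107 to 121 CPM (0.49 with SE 0.11, adjusted p = 0.098). In the list of kinases and GTPase regulators 0 of 12 passed and the median was 0.13. The GTPases Cdc42 and Rhoa, which act on actin and on microtubules, were at 920 ± 54.2 CPM in cKO against 636 ± 28.6 CPM in WT (0.53 with SE 0.10, adjusted p = 0.058) and at 578 ± 54.6 against 406 ± 8.97 CPM (0.51 with SE 0.11, adjusted p = 0.075).

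**Figure D4:**
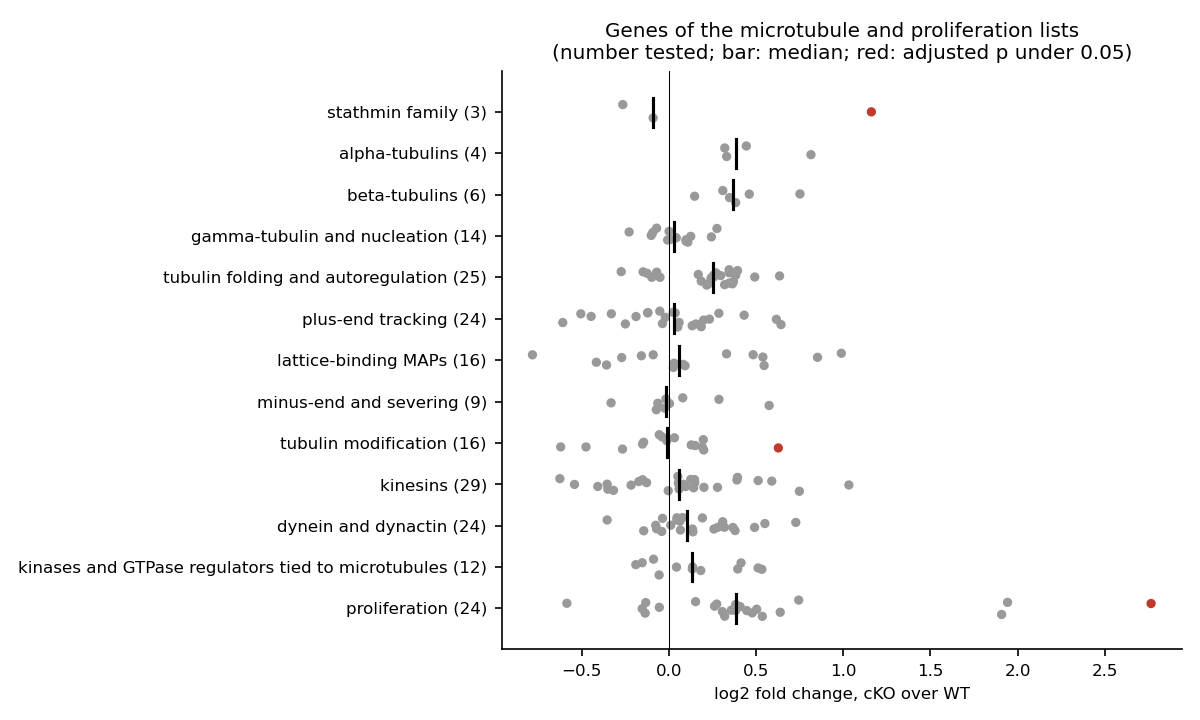
Log2 fold change of cKO over WT (horizontal axis) for each gene tested of the 12 microtubule lists and the proliferation list, with the number tested in brackets, the list's median as a bar and genes with an adjusted p under 0.05 in red. The red points are Stmn1 at 1.16, Sirt2 at 0.63 and Rrm2 at 2.77, and all alpha- and beta-tubulin points lie to the right of 0.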

How the data were processed

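The authors deposited 1 table of whole-number counts per gene symbol, not normalized, with 1 column per mouse. Per the submitters' processing notes DRAGEN and GRCm39 were used; which annotation, counting rule and strand setting were used is not stated there. The filterByExpr function of edgeR 4.0.16 (R 4.3.3) removed low genes, with a least count of 10 and a least total of 15, and the groups were compared by the robust quasi-likelihood F test with TMM factors and no covariate; p-values were adjusted by the Benjamini-Hochberg method over 11991 genes, threshold 0.05. A standard error is the log2 fold change over the root of F. Log2 CPM used a prior count of 2. The fit was tested on simulated data. It recovered 19 of 50 genes changed 1.5-fold and 41 of 50 changed 2-fold, with 8 false calls. A gene that misses the threshold may therefore still differ by 1.5-fold. The simulated libraries did not differ in GC content or length as the real ones did. Lengths, GC content (for 99.3% of genes tested), coding starts and shared stretches of 50 or 100 bases came from GENCODE M21 transcripts. Of the listed symbols absent from the table, Jpt1, Map7d3, Mtcl1, Pfdn6 and Svbp were read under older symbols. The members and lists were chosen with earlier results of these data known. All members, Srgap2, each list's genes past the threshold or its 2 with the smallest p, and the 5 genes closest to Stmn1 were named. Mki67 was named in addition, as a known division marker. Alternatives used DESeq2 (1.42.0), limma-voom (3.58.1), other factors and filters, covariates, offsets and leaving out each library. Some marker genes, and the sums over lists that hold them, are not reported here.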

Additional observations from a re-analysis of the deposited data

Results flagged for a closer look

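Tubb2a differed in direction between the 2 runs of mouse numbers. Among mice 1058 to 1062 the difference in mean log2 CPM, cKO minus WT, was −0.10, with cKO replicates 1 and 2 at 108 and 124.2 CPM and WT replicate 1 at 124.5 CPM. Among mice 1101 to 1109 it was 0.34, with cKO replicates 3 and 4 at 142 and 156 CPM and WT replicates 2 and 3 at 120 and 114 CPM. Each cKO library lay on one side of the WT libraries in the first run and on the other side in the second; the difference between the runs was not tested, and the first run holds a single WT library.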

How the results depend on the processing

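Across 19 alternatives, the log2 fold change of each of the 10 members and of Srgap2 kept its sign, and Srgap2 passed in all 19. Stmn1 passed in 14, and its log2 fold change ranged from 1.06 to 1.26 with 1 library left out. The 5 fits that lost the call each left out 1 library, with adjusted p from 0.065 to 0.21; leaving out a library also lowers the power of the test. The main counts were 43 genes past the threshold in all, 1 member higher in cKO and 2 genes of the microtubule lists. In that order they were 499, 3 and 14 with DESeq2, 904, 4 and 22 with sample quality weights, 1056, 3 and 25 with Xist as a covariate (where Map4 also passed, on the lower side), 649, 2 and 19 with GC content and length offsets, and 288, 2 and 12 under the replicate block, where the members were Stmn1 and Mapre1 (adjusted p = 0.045). A term for the mouse-number run gave 170 genes and 8 of the lists, no filter gave 89 and 5, and the fit without the robust option gave 1 gene of the lists. With 1 library left out they ranged from 4 (without WT replicate 2) to 142 (without cKO replicate 1), from 0 to 1 and from 0 to 6. Replicate numbers do not pair the mice: deviations of same-numbered libraries correlated at 0.39, 0.07 and −0.17, and not every library correlated best with its own number. Over the 42 named genes other than Srgap2 and Stmn1, which include the other members, 785 values were computed. Of these, 646 kept their direction and side of the threshold, 93 newly passed, 30 no longer passed and 16 changed sign. Those that changed sign had an adjusted p from 0.688 to 0.996, and none of them was for a member. With the replicate block Stmn2 came to 0.011 and Stmn3 to 0.071; with the Xist covariate Stmn3 came to 0.31, P2ry12 to −0.023 and Csf1r to 0.015; Csf1r was at 0.0036 with quality weights and 0.058 with offsets. With 1 library left out, values ranged from −0.467 to 0.233 for Stmn3, −0.042 to 0.028 for Csf1r, −0.046 to 0.253 for P2ry12 and −0.0997 to 1.35 for Map7. With median transcript lengths the share of Tubb5 in cKO was 72.2% and that of Tubb2a 15.0%. The cause of these differences was not tested. At this depth 214 counts or more support each Stmn1 value, while Rrm2 and the minor stathmins rest on few counts.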

Other observations

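Map7, which encodes a lattice-binding partner of kinesin-1, had 7 counts (0.222 CPM) in WT replicate 2 and from 353 to 776 counts (11.7 to 26.3 CPM) in each of the other 6 libraries. The gene was picked out after its values were seen and belongs to the lattice-binding list.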
